A study of Mus musculus with 10 samples.

Results

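Intermediate filaments are the third cytoskeletal system beside actin filaments and microtubules, and 10 of their genes were examined in heart muscle cells after Cre-driven deletion in Actn2, the gene of the Z-disc protein alpha-actinin-2. The 10 genes were picked by name from the 23337 in the table: Des, Vim, Synm, Nes, Krt8, Krt18 and Krt80 for the cytoplasm and Lmna, Lmnb1 and Lmnb2 for the nucleus. The choice was partly made on the measured values, because Krt80 had already been seen as a clear rise in knockout over heterozygote. All values of that comparison for the 10 genes are therefore given as a description, with no p-value.

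Intermediate filament proteins form coiled-coil dimers that assemble into ropes without polarity. In adult heart muscle desmin is the main cytoplasmic one. It wraps the myofibrils at their Z-discs and ties them to each other, to desmosomes, to mitochondria and to the nucleus. Synemin and nestin do not form filaments by themselves and join desmin or vimentin. Vimentin is typical of fibroblasts, endothelium and immature muscle. Keratins are obligate pairs of a type I and a type II chain, with keratin 18 and keratin 8 as the pair of simple epithelia. Lamins form the meshwork under the inner nuclear membrane, with A-type lamins from Lmna and B-type lamins from Lmnb1 and Lmnb2.

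Messenger RNA was sequenced in 10 samples of mouse cardiomyocytes that had been isolated at postnatal day 14 and purified by flow sorting. The 5 knockout samples came from mice with 2 floxed Actn2 alleles (Actn2 F/F) and the 5 heterozygote samples from mice with 1 floxed and 1 normal allele (Actn2 F/+). Both groups had received AAV9-cTNT-Cre on postnatal day 1, an adeno-associated virus that expresses the Cre recombinase from a cardiac troponin T promoter, so that the controls carried the virus, Cre and 1 recombinable allele as well. Sex, strain, sequencing batch, the gate of the sort and whether a sample was 1 mouse are not given in the sources used here. The series' design text calls the 5 samples of a group biological replicates.

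Total counts ran from 8086656 to 25237696 per library. Actn2 itself was at 1145 to 1286 CPM (read counts scaled to library size) in the knockouts and at 2677 to 3474 CPM in the heterozygotes, on the side that each label states (-1.39 on the log2 scale, SE 0.0910, adjusted p 3.48e-07 in edgeR). The 7 cardiomyocyte markers summed to 84007 to 108512 CPM in the knockouts and 88834 to 112239 CPM in the heterozygotes. Of these 7, 6 had negative log2 fold changes, and only Tnni3 was called (-0.53, adjusted p 0.00165 in edgeR). Tnni3 was at 4195 to 5013 CPM in the knockouts and 6015 to 8396 CPM in the heterozygotes. RNA of other cells was present at lower levels, with 8 endothelial markers summing to 313 to 511 CPM in the knockouts and 458 to 713 CPM in the heterozygotes, and 8 fibroblast markers to 318 to 648 and 330 to 538 CPM. In such bulk samples, fewer cells of a type and less RNA per cell cannot be told apart. Heterozygote 3 stood apart in interferon-response genes (8 genes summing to 134 CPM, against 7.22 to 14.7 CPM in the other 9 libraries). Without it, the calls of the 10 filament and lamin genes were as with it.

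Among the 10 genes, 4 passed the threshold (adjusted p below 0.05 over all tested genes in edgeR's quasi-likelihood test), all of them higher in the knockout: Krt80, Krt18, Krt8 and Synm. Of all 11870 tested genes 18.9% passed, 10.2% upward and 8.64% downward. In the same 4 genes every knockout lay above every heterozygote, which held upward for 8.41% of all tested genes, while 6.32% were apart downward. The fitted fold change was at least 4 in each of the 4, a rise reached together with a call by 0.708% of all tested genes. The other 6 genes, Des, Vim, Nes, Lmna, Lmnb1 and Lmnb2, were not called, and their groups overlapped. The median log2 fold change of the 10 was 0.24, against 0.0023 over all tested genes. Since this comparison helped to choose the genes, nothing is read from these shares.

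**Figure D1:**
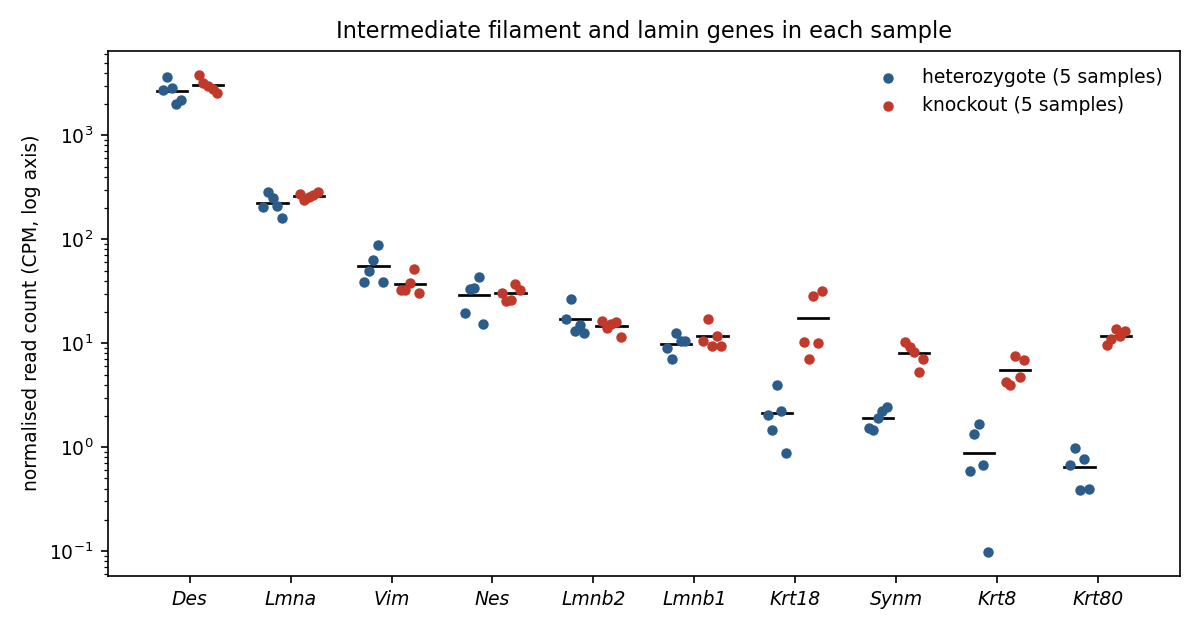
Normalised read count (CPM, log axis) of the 10 intermediate filament and lamin genes, ordered by their heterozygote mean. Each point is a sample and each bar the mean of 5 samples. Krt18, Synm, Krt8 and Krt80 lie at the low end, and for these 4 the knockout points sit above all heterozygote points.

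The 3 keratins went from close to the detection limit to a low level. Krt80 encodes a type II keratin of differentiating epithelia. It stood at 0.672, 0.982, 0.384, 0.777 and 0.394 CPM in heterozygotes 1 to 5 and at 9.58, 10.9, 13.8, 11.7 and 13.1 CPM in knockouts 1 to 5. The knockouts were tightly grouped and far above the heterozygotes, whose libraries held only 3 to 16 reads of the gene. The means were 11.8 ± 1.67 and 0.642 ± 0.256 CPM (SD, n = 5 each), a ratio of 18.4 and a fitted log2 fold change of 4.18 (SE 0.242). Among the 11870 tested genes this was the rise ranked 12 by size. Krt80 was picked as a clear rise, so a high rank follows from the choice. None of the 5 heterozygotes reached the level of the low-count filter, 1.01 CPM, so that Krt80 entered the tested set only through the knockouts. That level was reached by 2 heterozygotes for Krt8 and by 4 for Krt18. The filter asked for 5 samples at that level, so these 2 genes also depended on the knockouts to pass. All 10 genes passed the filter.

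Krt18, the type I partner of keratin 8, was at 2.06, 1.47, 3.97, 2.22 and 0.886 CPM in heterozygotes 1 to 5. In knockouts 1 to 5 it was at 10.2, 7.10, 28.5, 10.1 and 31.6 CPM. Knockouts 3 and 5 were well above the other knockouts, which were themselves above every heterozygote. The means were 17.5 ± 11.6 and 2.12 ± 1.16 CPM, with a log2 fold change of 3.07 (SE 0.466). With the mean of the endothelial markers as a covariate the value was 2.17, and Krt18 was still called. Krt8, the type II partner, was at 0.588, 1.35, 1.67, 0.666 and 0.0984 CPM in heterozygotes 1 to 5 and at 4.27, 3.97, 7.51, 4.72 and 6.85 CPM in knockouts 1 to 5. The lowest heterozygote value rests on 1 read. Knockouts 3 and 5 were again the highest, and the groups did not overlap. The means were 5.46 ± 1.61 and 0.874 ± 0.629 CPM, with a log2 fold change of 2.74 (SE 0.424).

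Because the 2 chains pair in a filament, their balance was also compared per length (CPM per kilobase of exon). Krt80, a type II chain as well, was not part of this share. Its knockout mean was 6.65 CPM per kilobase, against 3.03 for Krt8. Krt8 made up 22.6% ± 6.67 of the Krt8 and Krt18 signal in the knockout samples, with 22.2% ± 12.4 in heterozygotes (SD, n = 5), so that Krt18 was the more abundant of both in each group. The mean difference was 0.349 percentage points, far inside the spread between samples, and its sign changed without heterozygotes 1, 4 or 5 or without knockouts 1, 2 or 4. Within the knockouts the Krt8 share was lowest in samples 3 and 5 (16.98% and 14.4%), those with the most Krt18, and ran from 24.5% to 30.2% in the other 3. Krt18 is itself part of the sum, so this order is partly built in.

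All 3 keratin genes lie on chromosome 15, in the table's build mm10. Krt80 spans 101349571 to 101370125 on the minus strand, Krt8 spans 101996711 to 102004342 on the minus strand, and Krt18 spans 102028216 to 102032026 on the plus strand. Krt8 and Krt18 are neighbours that point away from each other across 23.9 kb, and Krt80 lies 627 kb from Krt8. Between and including them the table lists 34 genes, of which 25 carry a keratin symbol. Krt80 and Krt18 were taken as the ends of this interval, so their outermost place is set by that choice. Genes beyond these ends were not examined. The other 22 genes with such a symbol were too low to be tested, with 8 reads at most in any library and no read in any library for 13 of them. Krt7, the neighbour of Krt80, had 18 reads over all 5 knockouts and 9 over all 5 heterozygotes. The 9 genes without such a symbol were not tested either. None of the 10 filament and lamin genes shares exon bases with another gene of the table.

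**Figure D2:**
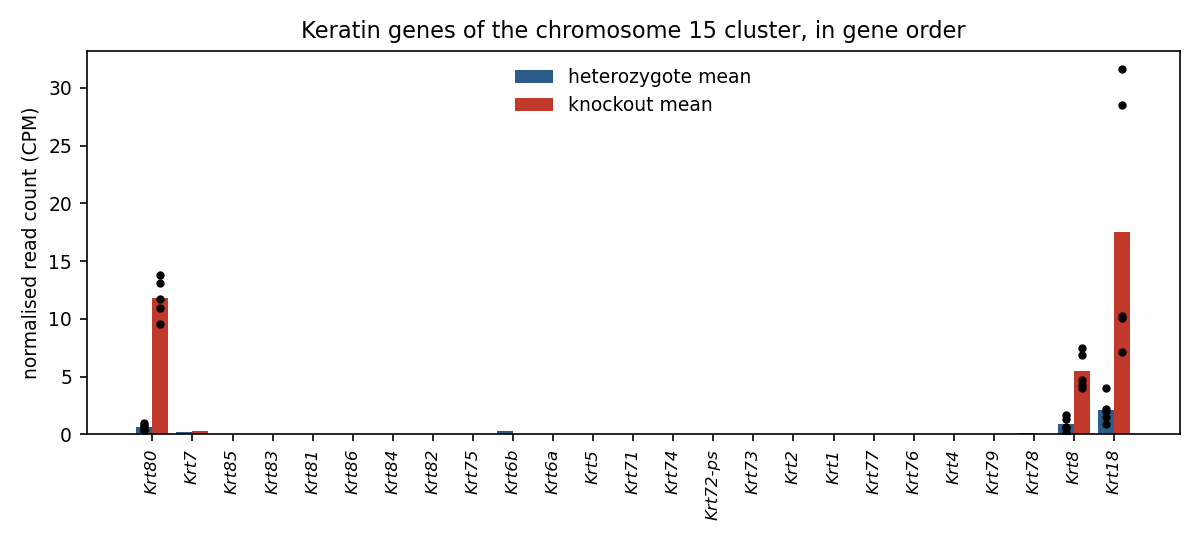
Mean normalised read count (CPM, linear axis from 0) of the 25 keratin genes from Krt80 to Krt18, in their order along chromosome 15 and not to distance. Bars are means of 5 samples, and black points are single samples for the 3 tested genes. Krt80 at the left end and Krt18 at the right end, beside Krt8, were taken as the bounds. The 22 genes between Krt80 and Krt8 stay near 0.

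Synm encodes synemin, a large protein that copolymerises with desmin and vimentin and binds costamere and Z-disc proteins. It lies on chromosome 7 at 67730161 to 67759742, minus strand. Its level was 1.51, 1.47, 1.92, 2.22 and 2.46 CPM in heterozygotes 1 to 5 and 10.2, 9.24, 8.19, 5.23 and 7.07 CPM in knockouts 1 to 5. Knockout 4 was the lowest of its group and still above the highest heterozygote. The means were 7.99 ± 1.93 and 1.92 ± 0.432 CPM (SD, n = 5), with a log2 fold change of 2.07 (SE 0.236). Markers of smooth muscle and pericytes, cells that also make synemin, summed to 194 to 288 CPM in the knockouts and 158 to 262 CPM in the heterozygotes over 6 genes. Only Cspg4 of these 6 was called (1.84 on the log2 scale, adjusted p 1.23e-06 in edgeR), and 4 of the 6 had negative values. The part of these cells in the Synm values was not tested.

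**Figure D3:**
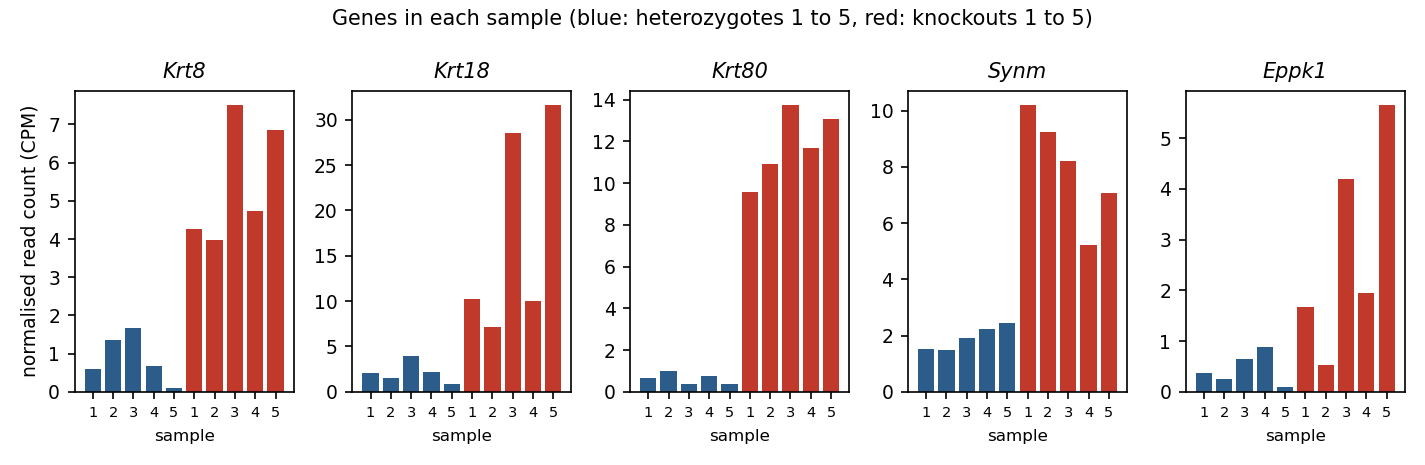
Normalised read count (CPM, each axis from 0) of Krt8, Krt18, Krt80, Synm and Eppk1 in each of the 10 samples, with heterozygotes 1 to 5 in blue and knockouts 1 to 5 in red. Knockouts 3 and 5 are the highest in Krt8 and Krt18, and Synm is highest in knockout 1. Eppk1, a keratin-binding cytolinker gene that was too low to be tested in the main fit, reaches 5.66 CPM at most.

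The start regions of Krt8, Krt18 and Synm are shown beside that of Des, so that the promoters of called genes of this family can be read next to that of its most abundant member, which was not called. Each line is the sequence of 250 bases that ends just before the RefSeq start site (build GRCm38.p6, the assembly of mm10), 5′ to 3′ on the gene's own strand, with motif matches in capitals. A match on the opposite strand appears as its reverse complement. The windows are chr15:102004343-102004592 (minus strand), chr15:102027966-102028215 (plus), chr7:67759743-67759992 (minus) and chr1:75360042-75360291 (plus).
Krt8: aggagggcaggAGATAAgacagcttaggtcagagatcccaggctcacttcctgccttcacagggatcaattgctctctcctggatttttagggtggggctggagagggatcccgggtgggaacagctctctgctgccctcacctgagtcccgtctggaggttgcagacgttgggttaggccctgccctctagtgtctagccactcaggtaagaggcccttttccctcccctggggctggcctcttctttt
Krt18: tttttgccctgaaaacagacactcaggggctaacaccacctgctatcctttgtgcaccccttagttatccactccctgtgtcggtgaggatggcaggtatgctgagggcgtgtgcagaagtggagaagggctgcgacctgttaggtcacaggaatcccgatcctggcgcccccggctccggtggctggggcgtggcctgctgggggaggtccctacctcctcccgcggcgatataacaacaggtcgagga
Synm: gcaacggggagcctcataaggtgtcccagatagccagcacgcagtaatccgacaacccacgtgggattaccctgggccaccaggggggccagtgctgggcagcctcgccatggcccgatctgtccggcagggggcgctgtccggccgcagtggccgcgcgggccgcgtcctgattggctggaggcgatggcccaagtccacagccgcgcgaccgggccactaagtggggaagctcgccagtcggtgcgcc
Des: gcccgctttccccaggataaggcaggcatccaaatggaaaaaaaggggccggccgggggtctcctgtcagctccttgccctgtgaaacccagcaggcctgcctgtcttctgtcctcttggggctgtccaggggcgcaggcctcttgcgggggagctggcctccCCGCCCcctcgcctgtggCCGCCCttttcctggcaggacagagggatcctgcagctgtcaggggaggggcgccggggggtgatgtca
The RefSeq start of Des lies 52 bases from the start in the table. On both strands, 6 motifs were searched. They were the TEAD motif CATTCC, the AP-1 motif TGANTCA, the GATA motif AGATAA and, in addition, the SP1 motif GGGCGG. The TATA box was searched as TATAAA and the SRF motif by its name, the CArG box, which can contain a TATA box. No matches overlapped in these windows. Krt8 held a single AGATAA, which starts 239 bases before the start site. Krt18 and Synm held none of the 6. Des held 2 GGGCGG matches, at 87 and 69 bases before the start site. Windows were read for 8 of the 10 genes. None was read for Lmnb1 or for Krt80, the largest rise among the 10, so the motif counts leave both out. GGGCGG was present in 4 of the 8, against 32.9% of 27025 gene start windows of the same length. AGATAA and TATAAA were each present in 1 of 8, against 10.3% and 13%. The TEAD and AP-1 motifs and the CArG box were present in 0 of 8, against 12.6%, 6.87% and 1.40%. These are letter matches only.

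Des was by far the most abundant of the 10 genes and was not called. It lies on chromosome 1 at 75360344 to 75367715, plus strand. Its level was 2717, 3609, 2852, 2004 and 2194 CPM in heterozygotes 1 to 5 and 3842, 3156, 2995, 2776 and 2560 CPM in knockouts 1 to 5. The ranges overlapped along most of their length. The means were 3066 ± 489 and 2675 ± 630 CPM (SD, n = 5), with a log2 fold change of 0.20 (SE 0.151). That value was 0.33 without heterozygote 2, 0.11 without heterozygote 4 and 0.10 without knockout 1, and Des was called in none of these. Per length, Des made up 98.2% ± 0.501 of the summed Des, Vim, Synm and Nes signal in the knockout and 97.1% ± 1.56 in the heterozygote. Synm made up 0.0696% ± 0.0112 and 0.0204% ± 0.00841, so that it stayed a small fraction beside desmin in both groups.

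Vim and Nes, the vimentin and nestin genes, were not called. Vim was at 39.1, 49.5, 62.5, 88.6 and 39.2 CPM in heterozygotes 1 to 5 and at 32.4, 32.2, 37.6, 51.9 and 30.4 CPM in knockouts 1 to 5. All knockouts but sample 4 were below the lowest heterozygote. The means were 36.9 ± 8.81 in the knockout and 55.8 ± 20.7 CPM in the heterozygote, with a log2 fold change of -0.59 (SE 0.218), short of the threshold over all genes. Vim passed the threshold as lower in the knockout with DESeq2, with the replicate number as a block, and without heterozygote 1 (-0.70), heterozygote 5 (-0.70) or knockout 4 (-0.75). Without heterozygote 4, the highest in Vim, the value was nearer to 0 (-0.36), as it was with voom (-0.40), and neither was called. Vim is abundant in endothelial cells and fibroblasts, and all 8 endothelial markers had negative log2 fold changes, from -0.65 to -0.38, 1 of them called (Egfl7). Of 7 tested fibroblast markers none was called and 4 were negative. With the endothelial mean as a covariate, the log2 fold change of Vim was 0.05. Heterozygote 4, the highest in Vim, was also the highest library in endothelial (713 CPM), mesothelial (21.4 CPM) and proliferation markers (136 CPM). It was the highest heterozygote in fibroblast markers (538 CPM) and in markers of smooth muscle and pericytes (262 CPM). The part of endothelial or other cells in the Vim values was not tested.

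Nes was at 19.4, 33.4, 34.0, 43.1 and 15.4 CPM in heterozygotes 1 to 5 and at 30.5, 25.7, 25.9, 37.0 and 32.7 CPM in knockouts 1 to 5. The knockout values lay inside the heterozygote range. The means were 30.4 ± 4.81 and 29.1 ± 11.4 CPM. The log2 fold change was 0.07 (SE 0.230), and its sign changed when heterozygote 1, heterozygote 5 or knockout 4 was left out. With the endothelial covariate it was 0.58 and with voom 0.35, and Nes was called with neither. Like Vim, nestin was highest in heterozygote 4 and, among the knockouts, in knockout 4.

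The 3 lamin genes were not called. Lmna, which gives lamins A and C and is mutated in a form of dilated cardiomyopathy, lies on chromosome 3 at 88481149 to 88503332. It was at 206, 286, 247, 210 and 162 CPM in heterozygotes 1 to 5 and at 271, 239, 255, 264 and 286 CPM in knockouts 1 to 5. The knockouts were closely grouped at the upper part of the heterozygote range. The means were 263 ± 17.7 and 222 ± 46.9 CPM. The log2 fold change was 0.25 (SE 0.130), and among all settings run Lmna passed the threshold only when heterozygote 2, the highest of its group, was left out (0.36). Without heterozygote 5, the lowest of its group, the value was 0.15.

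Lmnb1, which is expressed most in dividing cells, was at 8.90, 6.999, 12.4, 10.5 and 10.5 CPM in heterozygotes 1 to 5 and at 10.5, 17.3, 9.37, 11.8 and 9.34 CPM in knockouts 1 to 5 (log2 fold change 0.24, SE 0.201). Knockout 2 was the highest, and the other knockouts lay among the heterozygotes. Its value was 0.054 without knockout 2, 0.15 without heterozygote 2 and 0.54 with the endothelial covariate, and it was called in none of these. The 9 proliferation markers summed to 42.4 to 78.4 CPM in the knockouts and 66.9 to 136 CPM in the heterozygotes, 9 of 9 with negative log2 fold changes and none called. Lmnb2, the other B-type lamin, was at 17.3, 26.8, 13.2, 14.99 and 12.5 CPM in heterozygotes 1 to 5 and at 16.2, 13.9, 15.2, 16.01 and 11.5 CPM in knockouts 1 to 5 (log2 fold change -0.22, SE 0.195). Its groups overlapped, with heterozygote 2 the highest, and without that library the value was -0.0012. Per length, Lmna made up 90.3% ± 1.87 of the lamin signal in the knockout samples, with 88.5% ± 1.20 in heterozygotes (SD, n = 5). Lmnb2 made up 51.8% ± 6.91 and 58.0% ± 11.7 of the B-type signal, a difference within the spread between samples.

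The order of levels per length shows where the risen genes arrived. In the heterozygotes, Des (1245 CPM per kilobase) led Lmna (66.8) and Vim (30.4), followed by Lmnb2 (5.03), Nes (4.74), Lmnb1 (3.48), Krt18 (1.52), Krt8 (0.484), Krt80 (0.362) and Synm (0.244). From Lmnb2 downward, each neighbouring pair in this order had overlapping ranges. In the knockouts, Des (1427), Lmna (79.1) and Vim (20.1) were again the first 3. Krt18 (12.5) and Krt80 (6.65) came next, before Nes (4.96), Lmnb2 (4.33), Lmnb1 (4.10), Krt8 (3.03) and Synm (1.02). Between neighbours from Vim to Krt8 the knockout ranges overlapped. Krt18 moved from rank 7 to rank 4 and Krt80 from rank 9 to rank 5.

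Keratins 8 and 18 are also made by the mesothelium that covers the heart, and its markers were examined beside them. The 6 mesothelial markers in the table summed to 4.37 to 8.20 CPM in the knockouts and to 4.54 to 21.4 CPM in the heterozygotes, so that the groups overlapped and the highest library was heterozygote 4. Of 3 tested, Msln, Upk3b and Wt1, none was called and all had negative log2 fold changes (-0.81 to -0.16). Krt19, a keratin of the same cells, reached 0.611 CPM at most in a knockout and 0.999 CPM at most in a heterozygote. None of the 6 was at 0 in all libraries. The part of such cells in the keratin values was not tested. The glial list summed to 2.93 to 6.17 and 2.66 to 4.45 CPM over 4 genes, and the macrophage list was lower in every knockout than in any heterozygote (4.53 to 6.72 against 8.56 to 22.9 CPM over 6 genes).

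**Figure D4:**
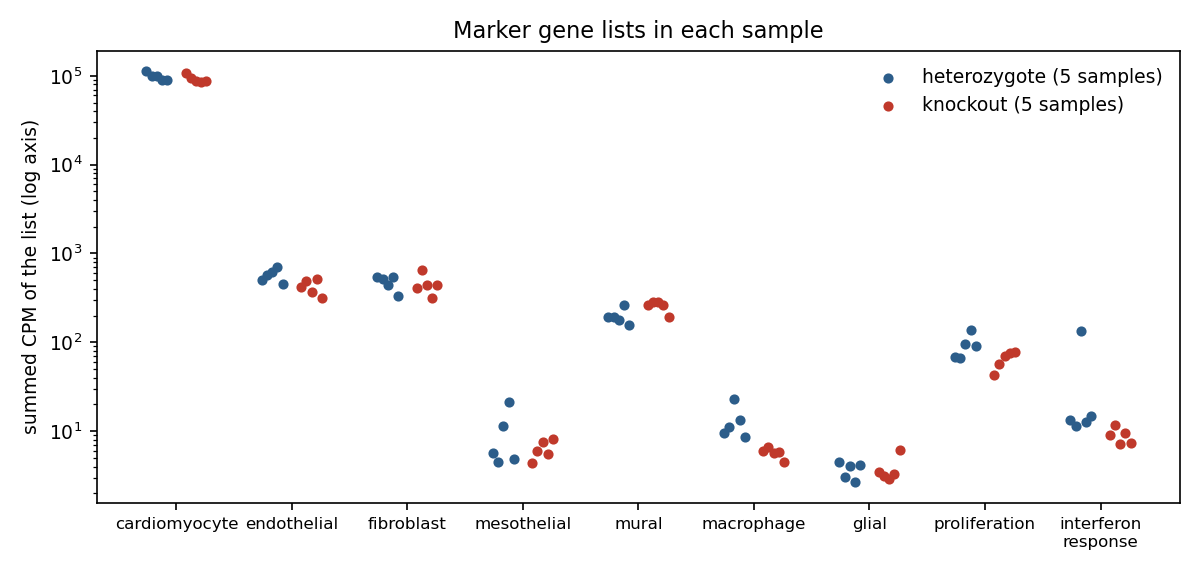
Summed normalised read count (CPM, log axis) of each marker list in each of the 10 samples. The knockout points lie among or below the heterozygote points for the endothelial, mesothelial, macrophage and proliferation lists, and a single heterozygote stands above the rest for the interferon response.

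Few other filament genes were expressed. The list held 61 further genes of the table, of which 5 were expressed enough to be tested. Besides Krt8, Krt18 and Krt80, the table holds 49 genes with a keratin symbol, and 47 of them had fewer than 10 reads in every library. The remaining pair, Krt10 and Krt222, was not called (log2 fold changes -0.34 and -0.43, SE 0.225 and 0.168, edgeR adjusted p 0.332 and 0.0933). Iffo1, a gene of the filament family whose protein is found in the nucleus, had heterozygote and knockout means of 12.7 ± 1.83 and 18.1 ± 2.16 CPM (SD, 5 samples each) and rose by 0.52 in log2 units (edgeR adjusted p 0.0176, SE 0.138). All knockouts were above all heterozygotes. The call was lost without knockout 2 (adjusted p 0.0506) and with the endothelial covariate (adjusted p 0.194). The list's median was -0.14 over its 5 tested genes.

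Genes for proteins that anchor, bundle or turn over intermediate filaments made up a further list. Of 21 genes, 18 were tested and 6 rose, against a background of 10.2% upward over all tested genes. None was called lower, and the list's median log2 fold change was 0.27 against 0.0023 over all tested genes. Trim32, a ubiquitin ligase that acts on desmin, rose from 22.3 to 27.3 CPM in the heterozygotes to 38.1 to 43.1 CPM in the knockouts (0.69 on the log2 scale, SE 0.0932, adjusted p 0.000162 in edgeR). The groups were tight and apart. Plec, the gene of plectin, which links desmin to Z-discs, desmosomes and mitochondria, was at 175 to 274 CPM in the heterozygotes and 301 to 389 CPM in the knockouts (0.60, SE 0.129, adjusted p 0.00475). Dsp, the gene of desmoplakin, which holds desmin at desmosomes, was at 350 to 410 and 454 to 524 CPM (0.37, SE 0.0826, adjusted p 0.00616).

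Bag3, a co-chaperone of the Z-disc, rose by 0.43 in log2 units (edgeR adjusted p 0.00987, SE 0.104), with 200 to 269 CPM in the heterozygotes and 265 to 326 CPM in the knockouts. These ranges touched only through heterozygote 3. Macf1, a linker of actin and microtubules, rose by 0.39 (SE 0.120, adjusted p 0.0346). Pkp2, the desmosomal plakophilin gene and the other called gene of the list, rose by 0.37 (SE 0.105, adjusted p 0.0254). It was named after its value was seen. Macf1 lost its call in 5 of 10 fits with a sample removed (without heterozygotes 1 or 5 or knockouts 3, 4 or 5, adjusted p 0.0608 to 0.0999), and Pkp2 in 2 of them (without knockouts 2 or 3, 0.0646 and 0.0712). With the endothelial covariate, Trim32 alone of the 6 kept its call, and the fitted values of the others lay between 0.31 and 0.51. Their SEs were larger than without it, at 0.186 for Plec, 0.120 for Dsp, 0.155 for Bag3, 0.179 for Macf1 and 0.151 for Pkp2.

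The last list held nuclear envelope genes. Of 25 in the table, 24 were tested, 1 rose and 1 fell, beside 10.2% upward and 8.64% downward over all tested genes. The list's median log2 fold change was 0.04. Tmem43, which encodes the inner nuclear membrane protein LUMA, rose from 33.1 ± 2.65 to 46.2 ± 4.90 CPM (0.48 on the log2 scale, SE 0.1001, adjusted p 0.00414 in edgeR, and 0.0667 with the endothelial covariate). Nrm, the gene of nurim in the same membrane, fell from 7.13 ± 0.741 to 4.86 ± 0.638 CPM (-0.56, SE 0.164, adjusted p 0.0291). Its call ended in 8 of 19 other settings, among them library totals alone (adjusted p 0.0612) and leaving out heterozygote 1, heterozygote 3, knockout 1 or knockout 2 (0.0510 to 0.0766). The other 22, among them emerin, the SUN and nesprin genes and the enzymes that process prelamin A, were not called.

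**Figure D5:**
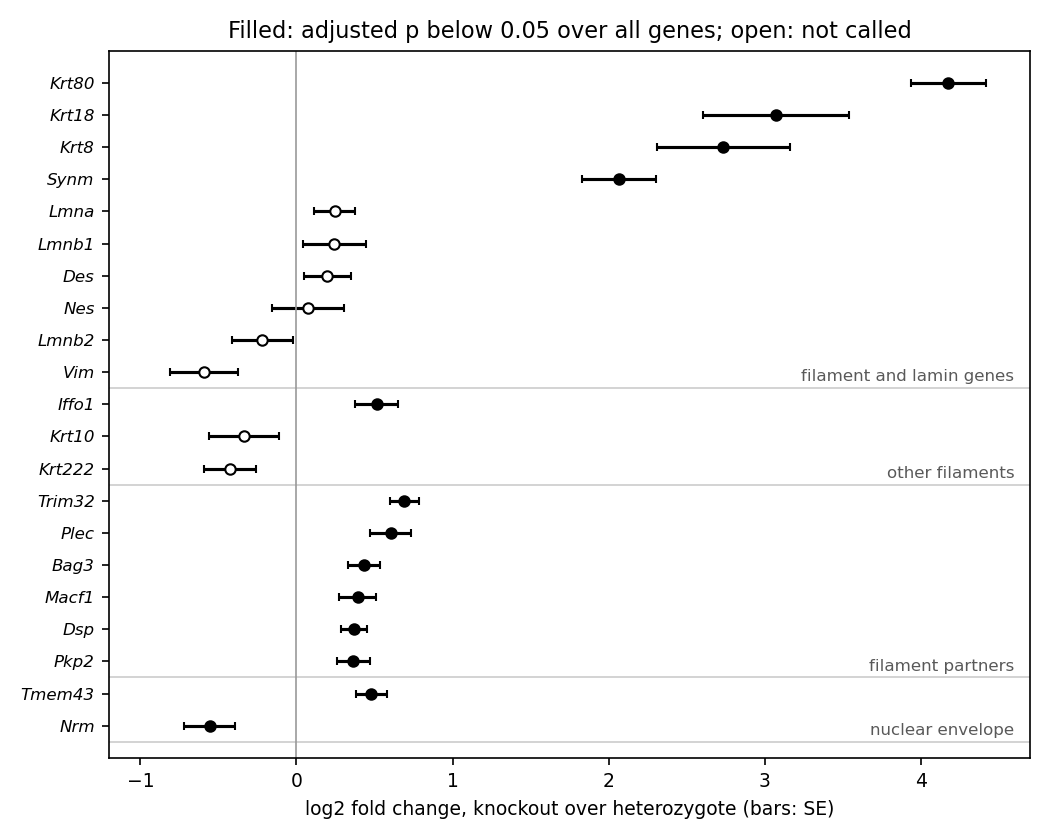
Log2 fold change (knockout over heterozygote, x axis) with its SE for the 10 filament and lamin genes and for the named genes of the 3 other lists. Filled points passed an adjusted p below 0.05 over all genes, and open points did not. Krt80, Krt18, Krt8 and Synm lie above 2, and all other points lie between -0.60 and 0.70.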

How the data were processed

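Whole-number read counts per gene, deposited by the authors without normalisation, were read for the 10 libraries. Per the file headers, the authors made the counts with featureCounts 1.5.1, 4 threads and no other option, on the UCSC mm10 annotation. Under its defaults, strand is ignored and reads that fit several places or genes are left out. The submitters' processing notes list STAR 2.5.3a and Subread 1.5.2, while the alignment names in the header are the default of another aligner. RNA input was 10 ng, amplified over 8 PCR cycles, per the labels' protocols. The table also holds 4 count columns that match no sample of the series and were not used.

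Genes were filtered with filterByExpr (minimum count 10, minimum total 15), scaled by TMM and compared with edgeR 4.0.16 (R 4.3.3, quasi-likelihood F test, no covariate, Benjamini-Hochberg over 11870 genes). CPM uses TMM-scaled totals, and CPM per kilobase divides by the table's exon length. Each SE given for an edgeR fit is the absolute log2 fold change divided by the square root of the F statistic. On simulated counts for 11870 genes, 77.6% of 2-fold and 100% of 4-fold changes were called, and 2.79% of calls were false. Far fewer genes were changed there than were called in the data, and none by less than 2-fold. These shares therefore do not carry over to the data or to smaller changes. Lists of other filament genes, filament partners, nuclear envelope genes and markers of 9 kinds were counted. Alternatives were RLE, upper-quartile and library-total scaling, no filter or a mean of at least 5 CPM, a replicate block, an endothelial covariate, DESeq2 1.42.0, voom (limma 3.58.1) and leaving out each sample. The 10 genes, the lists and the tests were chosen with earlier results of these data known. The naming rule took from each of 3 partner lists up to 5 called genes per direction whose mean reached 5 CPM, and any further keratin whose mean reached 1 CPM. Pkp2, Eppk1, Krt7 and single marker genes were named after their values were seen. Of all list symbols, 5 were matched through older symbols. P-values set the difference between groups against the spread between these samples.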

Additional observations from a re-analysis of the deposited data

Results flagged for a closer look

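In 54 groups of 5 values (CPM of a gene, or a share, within 1 genotype), 4 held a sample that stood off from the rest, with a gap to its nearest neighbour (as a share of the whole range) above the limit of Dixon's test. Chance gives about 1 such group in 20, so that some of the 4 are to be expected among 54 groups. Bag3 was at 269 CPM in heterozygote 3, against 213 CPM in the next highest heterozygote (gap 0.809). Des made up 94.4% of the summed Des, Vim, Synm and Nes signal per length in heterozygote 4, against 97.1% in the next lowest heterozygote (gap 0.728). Vim made up 4.89% of that sum in the same sample, against 2.49% in the next highest (gap 0.723). Synm made up 0.0502% of it in knockout 4, against 0.0716% in the next lowest knockout (gap 0.749).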

How the results depend on the processing

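Krt80, Krt18, Krt8 and Synm kept their direction and call under all settings that tested them, with log2 fold changes of 4.06 to 4.33, 2.17 to 3.36, 2.45 to 3.28 and 1.97 to 2.19. Krt8 was not tested at a mean of at least 5 CPM. These fits reuse the libraries that helped to choose the genes, so the kept calls are a description and no further support. The low end for Krt18, 2.17, came with the endothelial covariate, which also turned Vim to 0.05 and left 898 genes and 1 partner gene called in place of 2241 and 9. The cause was not tested. All 8 endothelial markers had negative log2 fold changes, so this covariate is partly aligned with genotype. The Actn2 value was -1.384 with it (SE 0.133) and -1.386 without it (SE 0.0910). A call lost with this covariate is therefore not by itself a sign of a smaller change. Calls numbered 1699 to 2258 over all genes, 4 to 5 among the 10 genes and 7 to 12 among partner genes when single samples were left out. Library totals alone gave 68.9% of calls upward, against 54.3% with TMM. With the replicate block, 2182 genes, 5 of the 10 genes (Vim the addition) and 11 partner genes were called. Deviations of same-numbered samples correlated at -0.060 to 0.185, and 2 of 5 matched best with their own number, so the pairing was not used. The log2 fold change of Nes ran from -0.086 to 0.26 when single samples were left out (0.58 with the endothelial covariate), below 0 without heterozygote 1, heterozygote 5 or knockout 4. With single samples left out, Des ran from 0.10 to 0.33, Vim from -0.75 to -0.36, Lmna from 0.15 to 0.36, Lmnb1 from 0.054 to 0.33 and Lmnb2 from -0.31 to -0.0012 (-0.064 with voom). Knockout minus heterozygote shares (percentage points) without single samples ran from -3.22 to 5.18 for Krt8 in Krt8 and Krt18, 1.15 to 2.45 for Lmna in the 3 lamin genes, -8.88 to -1.61 for Lmnb2 in the B-type lamins, 0.424 to 1.35 for Des in the 4 cytoplasmic genes, -1.35 to -0.522 for Vim in the 4 cytoplasmic genes, 0.0468 to 0.054 for Synm in the 4 cytoplasmic genes and -0.0706 to 0.047 (without heterozygote 4) for Nes in the 4 cytoplasmic genes. From counts not divided by length, the Synm difference was 0.179 in place of 0.0492. Heterozygote keratin values rest on 1 to 49 reads per library, and such counts limit their precision.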

Other observations

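Epiplakin, encoded by Eppk1, is a cytolinker that binds keratins. Its gene was too low for the filter of the main fit and so has no test there. Eppk1 was at 0.378, 0.246, 0.641, 0.888 and 0.0984 CPM in heterozygotes 1 to 5 and at 1.67, 0.535, 4.19, 1.95 and 5.66 CPM in knockouts 1 to 5. Knockouts 3 and 5, the highest in Krt8 and Krt18, were also the highest in Eppk1, and knockout 2 was the lowest of its group in all 3 genes. The groups overlapped through knockout 2. Eppk1 was singled out after its values were seen, and 5 knockouts are too few for a correlation. Krt80, with a range of 9.58 to 13.8 CPM, varied less among the same samples, and Synm had its highest value in knockout 1.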
